A study of Drosophila melanogaster with 9 samples.

Results

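Genes that differed between the heads of isolated flies and of flies kept in a group, with the same sign at both durations of isolation, were described from 9 RNA libraries. All flies were Drosophila melanogaster, wild type Canton-S w1118 (iso1CJ). They had been kept alone for 7 days, alone for 1 day, or in a group for 7 days, with 3 libraries for each condition. The 6 libraries of both isolation times formed the isolated set, and the 3 group libraries were the ones it was set against. No group kept for 1 day was among the libraries. At 1 day, isolation and the length of the treatment therefore cannot be told apart. Each library came from 200 whole heads collected at Zeitgeber time 0.5 to 2, soon after lights on. The labels give neither sex nor age, and do not say how the flies alone for 1 day were kept before that day. They do not say that the libraries of a condition came from separate cultures, so p-values measure only the spread between these libraries. Of 12963 genes tested, 147 were called in the pooled comparison with the same sign of shift at both durations. Of these, 113 had an unadjusted p under 0.05 at each duration and 23 were called at each duration apart, and some of the others were at the level of the group after 7 days.

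Social isolation is a widely used stressor in flies, in which group housing gives contact through touch, smell and taste. The head holds brain, eyes, antennae, mouthparts, muscle and the head fat body, a tissue that stores fat, detoxifies and secretes proteins into the blood. Much of the nutritional, stress and sex-biased gene expression of a whole head comes from that fat body. Secreted stress proteins of the Turandot family are induced through JAK-STAT signalling, cytochrome P450 enzymes oxidise hormones and foreign compounds, and juvenile hormone esterase breaks down juvenile hormone.

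Library totals were 47381611 to 50771319 counts for 7 days alone, 39698143 to 41404688 counts for 1 day alone and 50742967 to 53514747 counts for the group. Transcripts of gut and male reproductive tract, which belong to the body and not to the head, summed to between 690.5 and 1576 CPM in 5 libraries. In the remaining 4 the sum was 2.98 to 5.43 CPM, where CPM is the count of a gene in 1e+06 counts of the library after TMM scaling. The 5 libraries were replicates 1 and 3 of 7 days alone, replicates 1 and 2 of 1 day alone and replicate 2 of the group. This body tissue went with a log2 difference of 0.5 or more in 2977 genes. Of these, 1 gene (CG43133, named after its values were seen) was called in the pooled comparison, while the 23 genes called at both durations were all among the other 9986. Body tissue was present in some libraries of every condition and absent in others. It therefore widens the spread of the genes that differ with it, which makes calls among them unlikely. Nothing about body tissue is read from these counts. Summed markers of photoreceptors were lower in the isolated libraries (40690 to 43430 CPM after 7 days alone, 35240 to 39130 CPM after 1 day alone) than in the group (44590 to 45080 CPM). The 4 antennal markers Orco, Obp83a, Obp83b and lush summed to 4.74, 6.10 and 4.81 CPM after 7 days alone, 4.56, 5.17 and 6.34 CPM after 1 day alone, and 9.57, 6.22 and 12.4 CPM in the group. Of these markers, lush had a pooled log2 fold change of -0.87 (SE 0.131, adjusted p = 0.0302). Orco overlapped between isolated libraries (1.36 to 2.75 CPM) and the group (2.43, 1.72 and 2.51 CPM). Obp83a and Obp83b were above all isolated libraries in replicates 1 and 3 of the group, but not in replicate 2. In whole heads fewer cells of a type and less RNA per cell cannot be told apart.

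In the pooled comparison, the mean of both isolation times against the group, 151 genes were called at an adjusted p under 0.05 (edgeR quasi-likelihood test, Benjamini-Hochberg over all genes, two-sided). This was 1.16% of the genes tested, with 56 higher (0.432%) and 95 lower (0.733%). The excess of lower genes did not hold in every fit: calls were 39 higher and 34 lower without replicate 1 of 7 days alone, 19 and 14 without replicate 1 of the group, 21 and 16 without replicate 3 of the group, and 11 and 1 with the isolated libraries as a single condition. Of the 151, 147 had the same sign at both durations, 56 higher and 91 lower, and 4 had opposite signs. Both durations were measured against the same 3 group libraries, so agreement of sign between them is in part built in and carries no test. The 6 isolated libraries lay all above or all below the 3 group libraries in 120 of the 147 genes, as against 5.43% of all genes tested. These genes were chosen by a test on the same values, so nothing is read from that difference. Over all 12963 genes tested, 1451 had an unadjusted p under 0.05 in the pooled comparison, DESeq2 called 704 and limma-voom called 138. Counts within gene lists are given below at these thresholds. Where 1.16% of all genes are called, few calls fall to any list. A count of 0 risers or 0 fallers by edgeR is therefore not read as a result about a list.

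Apart, 39 genes (0.301%) were called at 7 days alone, 32 higher and 7 lower, and 513 genes (3.96%) at 1 day alone, 162 higher and 351 lower. Of the 147 genes, 23 were called at both durations, 6 at 7 days only and 118 at 1 day only. Those 23 are 0.177% of the genes tested, and 17 were higher and 6 lower in isolated flies. This balance turned with DESeq2 (66 higher, 79 lower) and without replicate 3 of 1 day alone (33 higher, 45 lower). The direct test between 7 days and 1 day alone called 599 genes (4.62%), and 87 of the 147 were among them, 80 with the larger shift at 1 day and 7 with the larger shift at 7 days. For the other 60 a difference between the durations was not called, which does not show that the durations acted alike. Among the 147, the estimate was larger at 1 day in 88 of 91 fallers and in 36 of 56 risers. No such share was taken over all genes tested. The pooled test favours genes with a large shift at either time, and 1 day alone gave most of the lower calls. These counts therefore follow in part from how the genes were chosen.

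These counts moved with single libraries. Without 1 of the replicates 1, 2 and 3 of 7 days alone the pooled comparison called 73, 23 and 16 genes, without 1 of the replicates 1, 2 and 3 of 1 day alone 97, 97 and 359, and without 1 of the replicates 1, 2 and 3 of the group 33, 33 and 37. In the same order the genes called at both durations numbered 18, 1 and 1, then 27, 18 and 78, then 10, 1 and 4. When all 6 isolated libraries were fitted as a single condition, so that the difference between durations counted as spread, 12 genes were called, and all 12 were among the 23. When the larger p of both durations was adjusted for each gene, 12 genes were called as well, 9 of them higher and 3 lower. Each of the 23 was called at both durations in 1 to 8 of the 9 fits with 1 library left out.

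**Figure D1:**
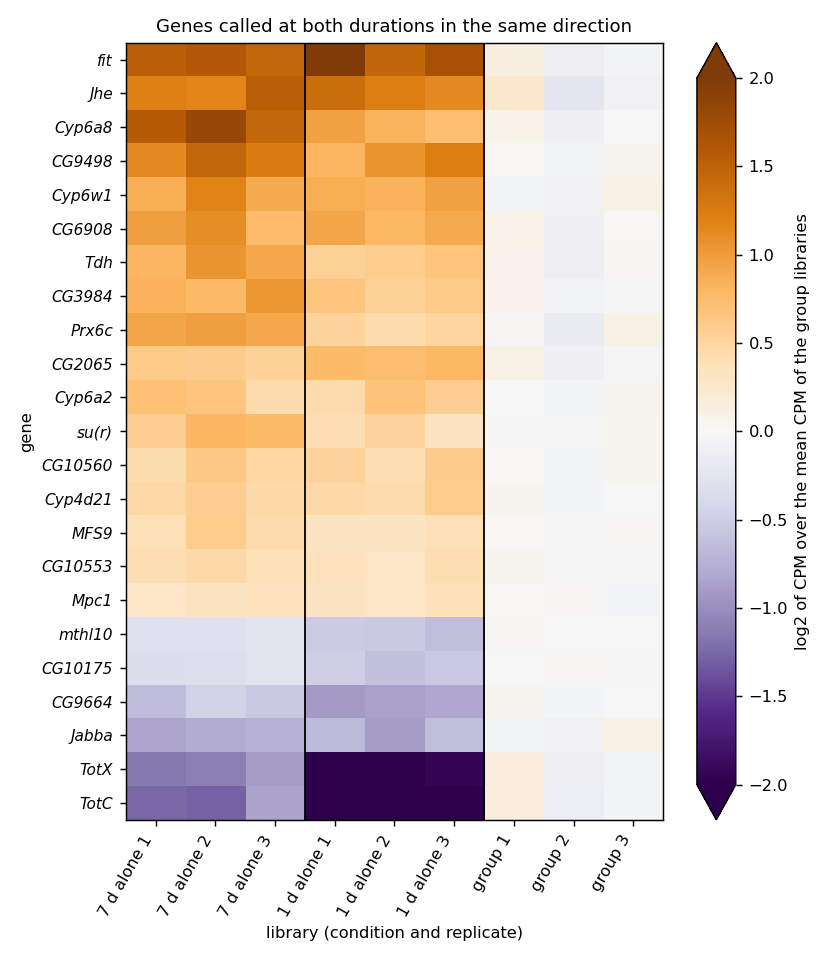
Heat map of the 23 genes called at both durations: rows are genes ordered by pooled fold change, columns are the 9 libraries, and colour is the log2 ratio of CPM to the mean of the group libraries, cut at 2 in either direction. The 17 risers are orange in all 6 isolated libraries and the 6 fallers purple, and TotX and TotC are darkest after 1 day alone.

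Single genes tied to feeding state, sex and juvenile hormone rose at both durations. fit (FBgn0038914, chromosome 3R, 21883924 to 21884454, reverse strand) is a satiety gene, whose secreted product is known to suppress intake of protein food and whose expression is sex-biased. It stood at 58.9, 61.2 and 56.0 CPM after 7 days alone and 90.7, 56.4 and 65.7 CPM after 1 day alone. Group values were 22.5, 19.0 and 19.9 CPM. Every isolated library held more fit RNA than any group library, and the pooled log2 fold change was 1.66 (SE 0.154, adjusted p = 0.00462), with 1.52 (SE 0.168, adjusted p = 0.017) at 7 days and 1.79 (SE 0.169, adjusted p = 0.00332) at 1 day. Its exons overlap CG31465 on the other strand and asRNA:CR45046 on its own. Cyp4d21 (FBgn0031925, chromosome 2L, 7605600 to 7607701, forward strand), also known as sxe1, a sex-biased cytochrome P450 of the head fat body, stood at 497, 531 and 489 CPM after 7 days alone and 491, 487 and 536 CPM after 1 day alone. In group heads it was at 368, 347 and 355 CPM. Here the isolation times were level with each other and both were above the group, at 0.50 (SE 0.0532, adjusted p = 0.0137) at 7 days and 0.50 (SE 0.0532, adjusted p = 0.00426) at 1 day. The juvenile hormone esterase gene Jhe (FBgn0010052, chromosome 2R, 16119793 to 16122773, forward strand) stood at 14.8, 14.3 and 18.7 CPM after 7 days alone and 16.6, 15.0 and 14.0 CPM after 1 day alone. The group stood at 7.63, 5.47 and 6.09 CPM. The lowest isolated library was well above the highest group library, and the pooled log2 fold change was 1.28 (SE 0.143, adjusted p = 0.0117). All 3 genes stayed called with the isolated libraries as a single condition. With 1 library left out, fit was called in all 9 pooled fits, and at both durations in 3 of them, as were Cyp4d21 and Jhe. For Cyp4d21 the pooled call was lost without replicate 2 of 7 days alone (adjusted p = 0.0705), replicate 3 of 7 days alone (adjusted p = 0.0793) or replicate 2 of the group (adjusted p = 0.119), and for Jhe without replicate 2 of 7 days alone (adjusted p = 0.0583), replicate 3 of 7 days alone (adjusted p = 0.0524), replicate 2 of the group (adjusted p = 0.051) or replicate 3 of the group (adjusted p = 0.0695).

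Of 11 satiety and sex-biased fat body genes tested, fit and Cyp4d21 rose and Obp99b fell in the pooled comparison, and the median log2 fold change of the list was 0.50 pooled, -0.013 at 7 days and 0.50 at 1 day, against 0.02, 0.01 and 0.03 for all genes. Of 11 juvenile hormone genes Jhe rose, and the list's median was -0.12 pooled, -0.012 at 7 days and -0.21 at 1 day.

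Cytochrome P450 genes were the second group. These enzymes are known for the breakdown of insecticides, plant toxins and hormones. Cyp6a8 (FBgn0013772, chromosome 2R, 14887171 to 14889010, reverse strand) stood at 190.5, 225 and 175 CPM after 7 days alone and 125, 113 and 106 CPM after 1 day alone. In the group it reached 68.2, 60.7 and 64.2 CPM. It was highest after 7 days, intermediate after 1 day and lowest in the group with no overlap between any of the conditions, and the difference of 7 days minus 1 day was called at 0.78 (SE 0.102, adjusted p = 0.00941). Cyp6w1 (FBgn0033065, chromosome 2R, 6173684 to 6176195, forward strand) stood at 284, 355 and 292 CPM after 7 days alone and 283, 278 and 303 CPM after 1 day alone. Levels in the group were 152, 148 and 167 CPM. Both isolation times overlapped each other and lay above the group, with 0.99 (SE 0.0931, adjusted p = 0.00986) at 7 days and 0.89 (SE 0.0929, adjusted p = 0.00415) at 1 day. Cyp6a2 (FBgn0000473, chromosome 2R, 6779749 to 6781491, reverse strand), a P450 known from insecticide-resistant strains, stood at 69.1, 67.1 and 57.3 CPM after 7 days alone and 57.5, 67.4 and 62.4 CPM after 1 day alone. Grouped flies had 42.2, 41.3 and 43.1 CPM. Its shift was the smallest of the 3 Cyp6 genes and of like size at both durations, at 0.61 (SE 0.0834, adjusted p = 0.0435) at 7 days and 0.57 (SE 0.0833, adjusted p = 0.0134) at 1 day. With 1 library left out, Cyp6a8 was called in all 9 pooled fits and at both durations in 8 of them. The pooled call of Cyp6w1 was lost without replicate 3 of 7 days alone (adjusted p = 0.0524) or replicate 2 of the group (adjusted p = 0.0582), and that of Cyp6a2 without replicate 2 of 7 days alone (adjusted p = 0.0944), replicate 1 of the group (adjusted p = 0.134), replicate 2 of the group (adjusted p = 0.142) or replicate 3 of the group (adjusted p = 0.131).

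Of 76 P450 genes tested, Cyp6a8, Cyp6w1, Cyp6a2 and Cyp4d21 rose at each duration and in the pooled comparison, and 0 fell in the pooled comparison by edgeR. At an unadjusted p under 0.05 there were 6 higher and 15 lower, DESeq2 called 5 higher and 8 lower, and limma-voom called 4 higher and 0 lower. The median of the family was -0.05 pooled, 0.09 at 7 days and -0.15 at 1 day. At 1 day apart, 5 P450 genes were called higher and 8 lower. CG2065 (FBgn0033204, chromosome 2R, 7663786 to 7665269, forward strand), a short-chain dehydrogenase gene, belongs to another oxidoreductase family. It stood at 21.4, 21.2 and 20.4 CPM after 7 days alone and 23.8, 23.4 and 24.0 CPM after 1 day alone. Group libraries held 15.1, 13.1 and 13.7 CPM. The spread within each condition was small and the isolated libraries did not overlap the group, with a pooled log2 fold change of 0.68 (SE 0.0520, adjusted p = 0.0034). That call was lost without replicate 2 of 7 days alone (adjusted p = 0.0545) or replicate 3 of 7 days alone (adjusted p = 0.0519).

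Ecdysteroid kinase-like genes, a family named for enzymes that add phosphate to the moulting hormone ecdysone and its relatives, gave 4 of the 17 risers. CG10553 (FBgn0039324, chromosome 3R, 25316461 to 25318111, reverse strand) stood at 114, 119 and 113 CPM after 7 days alone and 109, 106 and 115 CPM after 1 day alone. Group values were 88.8, 84.7 and 84.5 CPM. Its neighbour CG10560 (FBgn0039325, chromosome 3R, 25318550 to 25320101, reverse strand) on the same strand stood at 179, 207 and 187 CPM after 7 days alone and 192, 178 and 204 CPM after 1 day alone. In group heads it was at 134, 128 and 138 CPM. Isolated and group libraries of both neighbours were apart, and the durations were close, at 0.42 (SE 0.0383, adjusted p = 0.00986) at 7 days and 0.35 (SE 0.0383, adjusted p = 0.00459) at 1 day for CG10553, and 0.52 (SE 0.0675, adjusted p = 0.0403) at 7 days and 0.52 (SE 0.0675, adjusted p = 0.00835) at 1 day for CG10560. CG6908 (FBgn0037936, chromosome 3R, 11688381 to 11690051, reverse strand) stood at 176, 191 and 151 CPM after 7 days alone and 169.6, 153 and 166 CPM after 1 day alone. The group stood at 94.0, 83.5 and 89.4 CPM. CG9498 (FBgn0031801, chromosome 2L, 6349393 to 6351034, reverse strand) stood at 138, 172 and 149 CPM after 7 days alone and 109, 131 and 147 CPM after 1 day alone. In the group it reached 63.5, 60.5 and 64.9 CPM. Both were further from the group than the neighbours were, with pooled log2 fold changes of 0.91 (SE 0.0806, adjusted p = 0.00376) for CG6908 and 1.16 (SE 0.108, adjusted p = 0.00462) for CG9498. The pooled call of CG10553 was lost without replicate 2 of 7 days alone (adjusted p = 0.0741), replicate 3 of 7 days alone (adjusted p = 0.078) or replicate 2 of the group (adjusted p = 0.119), that of CG10560 without replicate 2 of 7 days alone (adjusted p = 0.0741), replicate 3 of 7 days alone (adjusted p = 0.134) or replicate 2 of the group (adjusted p = 0.149), that of CG6908 without replicate 2 of the group (adjusted p = 0.0573), and that of CG9498 without replicate 3 of 7 days alone (adjusted p = 0.0524) or replicate 2 of the group (adjusted p = 0.0582).

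Of 41 genes of this family tested, 5 rose and 2 fell in the pooled comparison with the same sign at both durations, with a family median of 0.07 pooled, 0.21 at 7 days and 0.05 at 1 day. The fifth riser, CG13360, moved mainly at 1 day, at 0.21 at 7 days and 0.66 at 1 day, and overlaps tw on the other strand. The members that fell were CG31300, at -0.13 at 7 days and -0.63 at 1 day, and CG7135, at -0.35 and -0.46 in the same order.

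**Figure D2:**
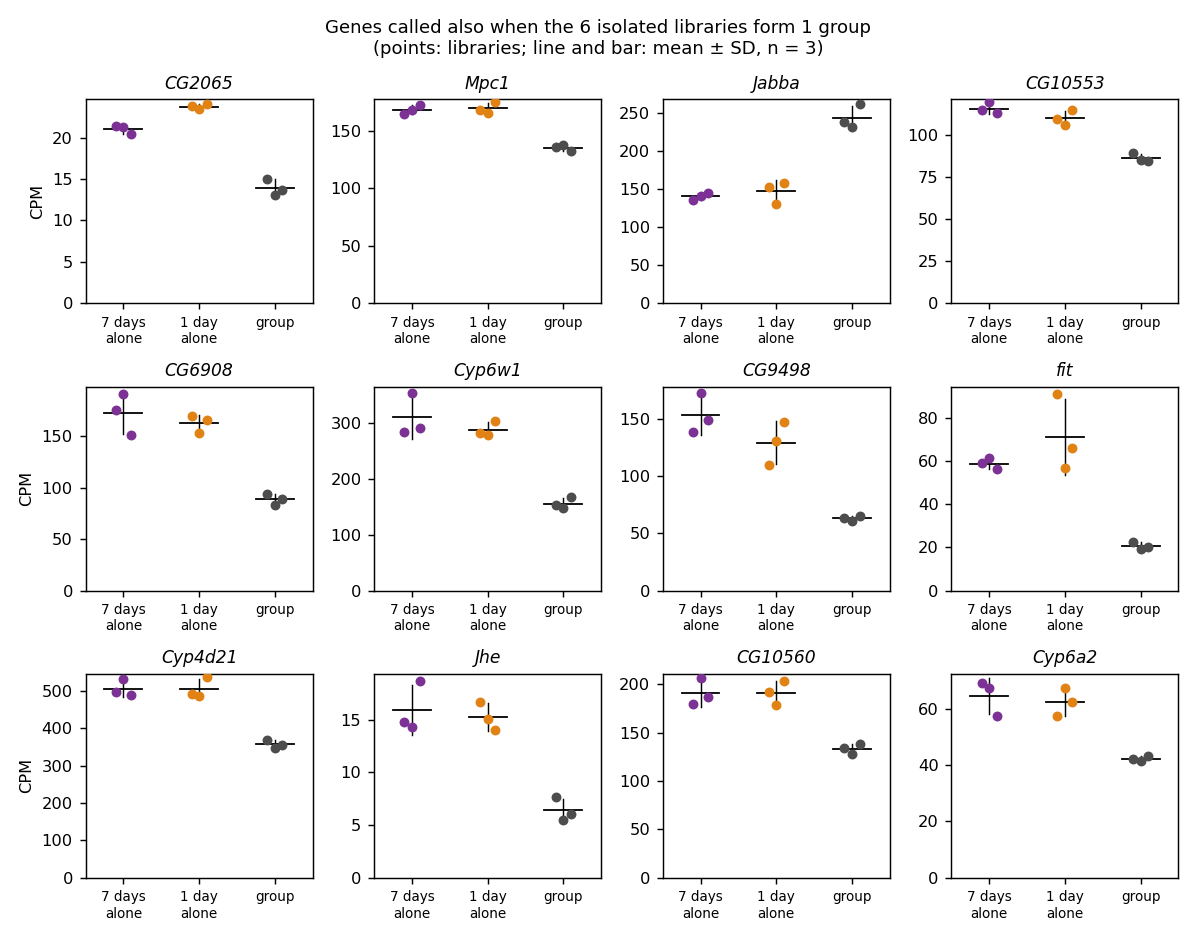
CPM of the 12 genes that were called also when the 6 isolated libraries formed a single condition, with 7 days alone, 1 day alone and group from left to right, points for libraries, and line and bar for the mean and SD of 3 libraries. In each panel the 6 isolated libraries and the 3 group libraries do not overlap, and Jabba is the only gene of the 12 that is lower in isolated flies.

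Mpc1, Tdh and su(r), genes of pyruvate transport and of amino acid and pyrimidine breakdown, rose at both durations. Mpc1 (FBgn0038662, chromosome 3R, 18926996 to 18928659, reverse strand), a subunit of the carrier that brings pyruvate into mitochondria, stood at 165, 168 and 172 CPM after 7 days alone and 168, 165 and 175 CPM after 1 day alone. Levels in the group were 136, 137 and 132 CPM. The shift was small, with a pooled log2 fold change of 0.32 (SE 0.0264, adjusted p = 0.0034), yet larger than the spread in any condition. Tdh (FBgn0036997, chromosome 3L, 20466944 to 20469592, forward strand), a threonine dehydrogenase gene of amino acid breakdown, stood at 84.7, 100.3 and 91.2 CPM after 7 days alone and 71.2, 73.0 and 77.0 CPM after 1 day alone. Grouped flies had 50.8, 45.4 and 49.3 CPM. It was highest after 7 days, at 0.92 (SE 0.0708, adjusted p = 0.00669) at 7 days and 0.60 (SE 0.0705, adjusted p = 0.00551) at 1 day, and a difference between the durations was not called (adjusted p = 0.0506). su(r) (FBgn0086450, chromosome X, 9196808 to 9201820, reverse strand), an enzyme of pyrimidine breakdown, stood at 108, 127 and 125 CPM after 7 days alone and 97.1, 105 and 91.5 CPM after 1 day alone. Group libraries held 71.4, 71.6 and 75.9 CPM. The isolated libraries were all above the group, with a pooled log2 fold change of 0.57 (SE 0.0660, adjusted p = 0.0124). With 1 library left out, the pooled call of Mpc1 was lost without replicate 2 of 7 days alone (adjusted p = 0.0589), replicate 3 of 7 days alone (adjusted p = 0.0675), replicate 1 of the group (adjusted p = 0.0591) or replicate 2 of the group (adjusted p = 0.0744), that of Tdh without replicate 3 of 7 days alone (adjusted p = 0.0547) or replicate 2 of the group (adjusted p = 0.0516), and that of su(r) without replicate 2 of 7 days alone (adjusted p = 0.0589), replicate 3 of 7 days alone (adjusted p = 0.0972) or replicate 2 of the group (adjusted p = 0.104).

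The peroxiredoxin gene Prx6c (FBgn0033518, chromosome 2R, 10418718 to 10419761, forward strand), which belongs to a family of enzymes that reduce peroxides, stood at 78.4, 81.5 and 77.5 CPM after 7 days alone and 59.1, 56.1 and 58.8 CPM after 1 day alone. Group values were 42.1, 37.4 and 44.5 CPM. The 3 conditions did not overlap, 7 days alone was the highest, and the difference of 7 days minus 1 day was 0.45 (SE 0.0637, adjusted p = 0.0125). The transporter gene MFS9 of the major facilitator family stood at 109, 123 and 112 CPM after 7 days alone and 103, 103 and 108 CPM after 1 day alone. In group heads it was at 82.9, 80.6 and 83.4 CPM. CG3984 stood at 17.9, 17.1 and 20.5 CPM after 7 days alone and 15.8, 14.7 and 15.3 CPM after 1 day alone. The group stood at 10.5, 9.64 and 9.89 CPM. CG3984 overlaps asRNA:CR45600 on the other strand. Both were above the group in all 6 isolated libraries, with pooled log2 fold changes of 0.41 (SE 0.0432, adjusted p = 0.00884) for MFS9 and 0.75 (SE 0.0701, adjusted p = 0.00462) for CG3984. The pooled call of Prx6c was lost without replicate 2 of 7 days alone (adjusted p = 0.0589) or replicate 3 of 7 days alone (adjusted p = 0.0524) and that of MFS9 without replicate 2 of 7 days alone (adjusted p = 0.0591), replicate 3 of 7 days alone (adjusted p = 0.119) or replicate 2 of the group (adjusted p = 0.155), while CG3984 was called in all 9 fits with 1 library left out.

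Of 29 genes of amino acid, one-carbon and pyrimidine breakdown, Tdh and su(r) rose and P5cr-2 and hgo fell in the pooled comparison, with a list median of 0.02 pooled, 0.18 at 7 days and -0.10 at 1 day. At 1 day apart, 3 genes of the list were called higher and 8 lower. Of 39 carbohydrate genes, Mpc1 and Pdhb, a subunit gene of the pyruvate dehydrogenase complex, rose. Of 15 peroxiredoxin and redox genes, Prx6c and Sod3, an extracellular superoxide dismutase, rose. For neither of the last lists did a member fall in the pooled comparison by edgeR, while 4 carbohydrate genes and 1 redox gene fell at 1 day. At an unadjusted p under 0.05 the carbohydrate list had 8 higher and 3 lower (DESeq2 6 and 3, limma-voom 1 and 0) and the redox list 2 higher and 0 lower (DESeq2 2 and 0, limma-voom 2 and 0). Pdhb and Sod3 were called at 1 day and not at 7 days, at 0.12 (SE 0.0450, adjusted p = 0.619) at 7 days and 0.33 (SE 0.0451, adjusted p = 0.00968) at 1 day for Pdhb, and 0.15 (SE 0.0614, adjusted p = 0.771) at 7 days and 0.49 (SE 0.0615, adjusted p = 0.00702) at 1 day for Sod3. Both pooled calls were lost in 7 of 9 fits with 1 library left out.

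Of the 6 fallers called at both durations, Jabba was lowered most evenly. Jabba (FBgn0259682, chromosome 2R, 18757074 to 18761082, reverse strand) encodes a protein that anchors histones on lipid droplets, and stood at 136, 141 and 146 CPM after 7 days alone and 153, 131 and 158 CPM after 1 day alone. In the group it reached 239, 232 and 261 CPM. All 6 isolated libraries were far below the group and the durations overlapped, at -0.79 (SE 0.0782, adjusted p = 0.0119) at 7 days and -0.73 (SE 0.0782, adjusted p = 0.00437) at 1 day. Its exons overlap Cyp12b2 on the other strand, and the pooled call was lost without replicate 3 of 7 days alone (adjusted p = 0.0524). CG9664 (FBgn0031515, chromosome 2L, 3291245 to 3294706, reverse strand), a gene of the ABCG transporter family, stood at 34.8, 39.7 and 37.8 CPM after 7 days alone and 28.9, 29.9 and 30.9 CPM after 1 day alone. Levels in the group were 56.4, 53.1 and 54.7 CPM. It was below the group at both durations and lower after 1 day, at -0.55 (SE 0.0565, adjusted p = 0.0127) at 7 days and -0.87 (SE 0.0568, adjusted p = 0.001) at 1 day. mthl10 (FBgn0035132, chromosome 3L, 332801 to 342915, reverse strand), a receptor gene of the Methuselah family, stood at 44.2, 44.2 and 45.3 CPM after 7 days alone and 37.4, 37.0 and 34.7 CPM after 1 day alone. Grouped flies had 54.5, 53.5 and 53.7 CPM. CG10175 stood at 45.3, 45.6 and 47.5 CPM after 7 days alone and 40.8, 37.4 and 38.9 CPM after 1 day alone. Group libraries held 57.0, 58.4 and 56.1 CPM. Both had modest shifts with narrow spreads, and both were further from the group after 1 day, at -0.28 (SE 0.0375, adjusted p = 0.0435) at 7 days and -0.57 (SE 0.0376, adjusted p = 0.001) at 1 day for mthl10, and -0.31 (SE 0.0415, adjusted p = 0.0418) at 7 days and -0.55 (SE 0.0416, adjusted p = 0.00175) at 1 day for CG10175. CG9664, mthl10 and CG10175 were called in all 9 pooled fits with 1 library left out. At both durations apart, mthl10 and CG10175 remained called in 1 of the 9 fits each.

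Of 23 lipid storage, breakdown and synthesis genes tested, Jabba and AkhR fell in the pooled comparison and 0 rose by edgeR (0 higher at an unadjusted p under 0.05, 0 by DESeq2 and 0 by limma-voom). The list's median was -0.15 pooled, 0.002 at 7 days and -0.35 at 1 day, with 1 member called lower at 7 days and 8 at 1 day. AkhR (FBgn0025595, chromosome 2L, 6711286 to 6716186, reverse strand), the receptor of adipokinetic hormone, which mobilises stored fat, stood at 71.0, 76.0 and 73.4 CPM after 7 days alone and 74.9, 64.0 and 75.9 CPM after 1 day alone. Group values were 101, 92.8 and 102 CPM. The isolated libraries lay below the group at both durations, by similar amounts, at -0.43 (SE 0.0718, adjusted p = 0.093) at 7 days and -0.46 (SE 0.0719, adjusted p = 0.0164) at 1 day. The pooled call of AkhR was lost in 6 of 9 fits with 1 library left out, with a highest adjusted p of 0.188 without replicate 3 of 7 days alone.

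The threshold at each duration decided which genes counted as called at both, and more often the one at 7 days, which 118 of the 147 genes missed, against 6 at 1 day. Just inside the threshold at 7 days were mthl10 and Cyp6a2 (adjusted p = 0.0435 each) and CG10175 (0.0418), and just outside it CG9436 (0.0527), Obp99b (0.0596), TotA (0.0649) and TotM (0.065). Genes such as TotM, with a log2 fold change of -1.62 at 7 days, were thus left out although their shift was larger than that of mthl10. At 1 day, CG15199 was just outside (0.0539).

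Turandot genes were among those that fell by the largest amounts. TotC (FBgn0044812, chromosome 3R, 20872988 to 20873580, forward strand) and TotX (FBgn0044810, chromosome 3R, 20904917 to 20905518, reverse strand) were called at both durations. TotC stood at 756, 741 and 1007 CPM after 7 days alone and 172, 192 and 192 CPM after 1 day alone. In group heads it was at 2000.3, 1670.3 and 1757 CPM. TotX stood at 279, 289 and 332 CPM after 7 days alone and 141, 155 and 164 CPM after 1 day alone. The group stood at 690.4, 577 and 594 CPM. For both genes the group was highest, 7 days alone intermediate and 1 day alone lowest, with no overlap between conditions, and log2 fold changes were -1.12 (SE 0.135, adjusted p = 0.0269) at 7 days and -3.28 (SE 0.146, adjusted p = 0.000486) at 1 day for TotC, and -1.05 (SE 0.0992, adjusted p = 0.00986) at 7 days and -2.02 (SE 0.102, adjusted p = 0.000486) at 1 day for TotX. TotA (FBgn0028396, chromosome 3R, 20871036 to 20871700, forward strand) stood at 1974, 1916 and 2614 CPM after 7 days alone and 572, 549.9 and 660.2 CPM after 1 day alone. In the group it reached 4629, 4029.6 and 4044 CPM. TotM (FBgn0031701, chromosome 2L, 5329857 to 5330464, forward strand) stood at 84.0, 154 and 164 CPM after 7 days alone and 22.5, 23.5 and 19.2 CPM after 1 day alone. Levels in the group were 448, 342 and 442 CPM. These had the same order of conditions, and were called in the pooled comparison and at 1 day, at -0.97 (SE 0.150, adjusted p = 0.0649) at 7 days and -2.83 (SE 0.159, adjusted p = 0.000721) at 1 day for TotA, and -1.62 (SE 0.252, adjusted p = 0.065) at 7 days and -4.24 (SE 0.282, adjusted p = 0.001) at 1 day for TotM. TotB, at 0.887 to 1.42 CPM after 7 days alone, 0.225 to 0.313 CPM after 1 day alone and 1.65 to 2.49 CPM in the group, had a pooled log2 fold change of -1.84 (SE 0.231, adjusted p = 0.0166). The Turandot genes are similar in sequence, so reads may have been shared between them, and TotA and TotC are close together on 3R.

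Diedel (FBgn0039666, chromosome 3R, 29493852 to 29494267, forward strand), a secreted cytokine-like protein known to dampen immune signalling, stood at 7.71, 14.1 and 11.1 CPM after 7 days alone and 1.68, 2.29 and 1.35 CPM after 1 day alone. Grouped flies had 31.7, 23.4 and 33.9 CPM. The order was again group highest, 7 days intermediate and 1 day lowest, at -1.43 (SE 0.281, adjusted p = 0.143) at 7 days and -4.07 (SE 0.314, adjusted p = 0.00177) at 1 day, and the conditions did not overlap. TotC, TotX, TotA, TotM and Diedel were called in all 9 pooled fits with 1 library left out, while at both durations apart TotC was called in 2 and TotX in 5 of the 9. Of 14 Turandot and JAK-STAT genes tested, these 5 and TotB fell in the pooled comparison and 0 rose by edgeR, with 1 higher at an unadjusted p under 0.05, 0 by DESeq2 and 0 by limma-voom. The list's median was -0.25 pooled, -0.54 at 7 days and -0.34 at 1 day. Of 29 antimicrobial peptide genes edgeR called 0 in the pooled comparison, with 2 higher and 5 lower at an unadjusted p under 0.05, 1 and 4 by DESeq2, and 0 by limma-voom.

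**Figure D3:**
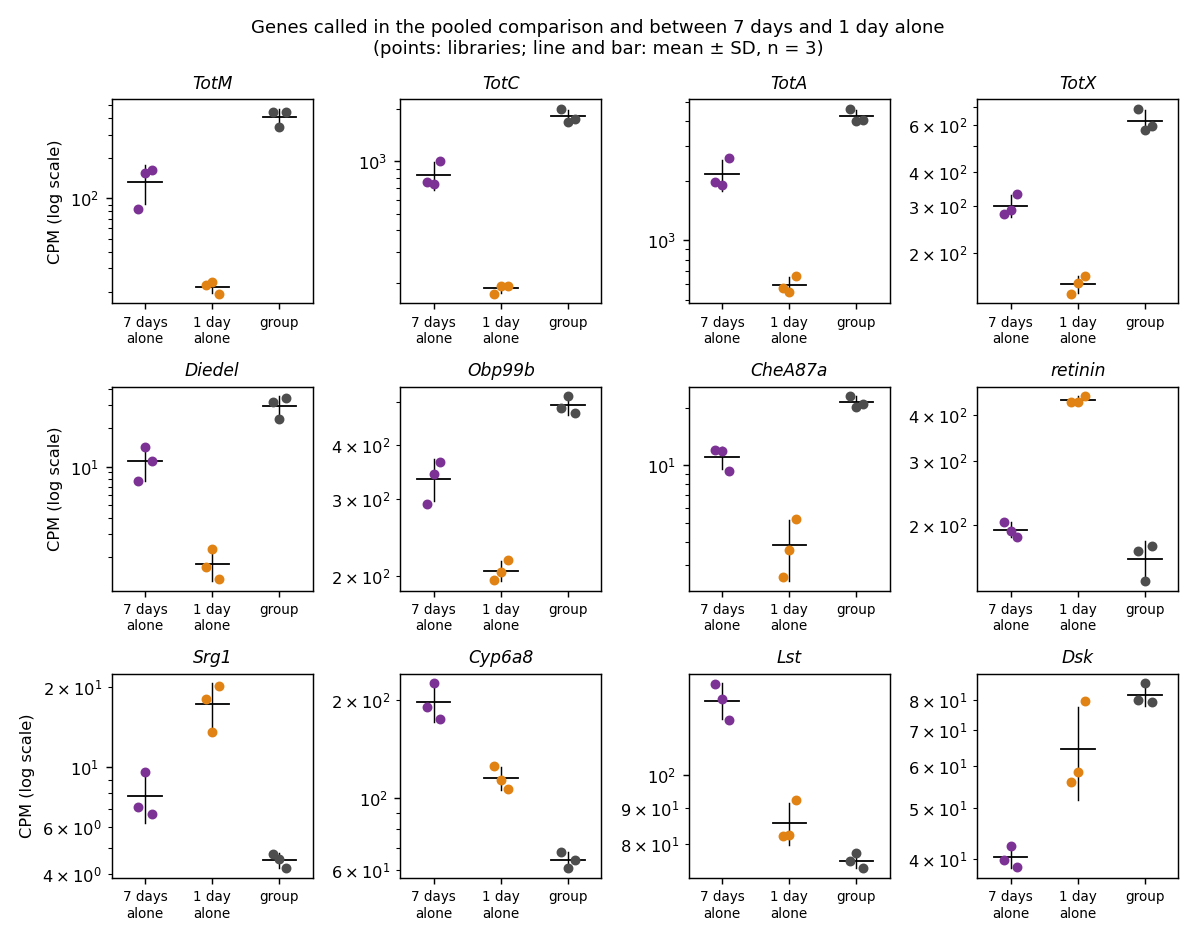
CPM on a log scale of 12 genes called in the pooled comparison and in the test between 7 days and 1 day alone, with 7 days alone, 1 day alone and group from left to right, points for libraries, and line and bar for the mean and SD of 3 libraries. Turandot genes, Diedel, Obp99b and CheA87a are lowest after 1 day, retinin and Srg1 are highest after 1 day, and Cyp6a8 and Lst are highest and Dsk lowest after 7 days.

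Single genes of chemical sensing and neuronal activity fell in the pooled comparison. Obp99b (FBgn0039685, chromosome 3R, 29716254 to 29716896, reverse strand), an odorant-binding protein gene with sex-biased expression, stood at 293, 342 and 365 CPM after 7 days alone and 196, 204 and 218 CPM after 1 day alone. Group libraries held 486, 517 and 472 CPM. Its 3 conditions were apart, and its pooled log2 fold change was -0.91 (SE 0.0712, adjusted p = 0.0034), a call kept in all 9 fits with 1 library left out. CheA87a, of a family of secreted proteins of gustatory organs, stood at 12.00, 11.8 and 9.33 CPM after 7 days alone and 2.60, 3.61 and 5.27 CPM after 1 day alone. Group values were 23.0, 20.1 and 21.03 CPM. The isolated libraries were all below the group and lowest after 1 day, with -1.72 (SE 0.200, adjusted p = 0.0128) pooled, and the gene overlaps Lip3 on the other strand. Arc1 (FBgn0033926, chromosome 2R, 14357927 to 14360297, reverse strand), whose capsid-like protein is known to carry RNA between cells and whose transcription follows neuronal activity, stood at 326, 387 and 514 CPM after 7 days alone and 269, 265 and 287 CPM after 1 day alone. In group heads it was at 812, 836 and 717 CPM. All 6 isolated libraries lay far below the group, at -0.95 (SE 0.157, adjusted p = 0.0856) at 7 days and -1.53 (SE 0.159, adjusted p = 0.00414) at 1 day, and a difference between the durations was not called (adjusted p = 0.094). The pooled call of Arc1 was lost without replicate 1 of the group (adjusted p = 0.0658), and that of CheA87a without replicate 2 of 7 days alone (adjusted p = 0.0677), replicate 3 of 7 days alone (adjusted p = 0.074), replicate 1 of the group (adjusted p = 0.11), replicate 2 of the group (adjusted p = 0.0582) or replicate 3 of the group (adjusted p = 0.0863). In replicate 2 of the group the antennal marker sum was 6.22 CPM, within the isolated range of 4.56 to 6.34 CPM. Obp99b and Arc1 were higher in that library than in any other, while CheA87a was lower in it than in the rest of the group. The marker lush alone stood at 3.67 CPM in that library and at 1.90 to 2.5 CPM in the isolated libraries. The part of antennal tissue in these falls was not tested.

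Of 34 odorant-binding protein genes tested Obp99b fell, of 14 aggression and pheromone-sensing genes CheA87a fell, and of 8 neuronal activity-regulated genes Arc1 fell. The antennal marker lush, whose pooled fall was called as well, also encodes an odorant-binding protein but was not a member of these lists. By edgeR 0 rose in any of the 3 lists, and the same held at an unadjusted p under 0.05, by DESeq2 and by limma-voom (0 higher each). The pooled medians were -0.14 for odorant-binding proteins, -0.18 for aggression and pheromone sensing, and 0.02 for activity-regulated genes. They were -0.11, -0.14 and -0.09 at 7 days, and -0.13, -0.27 and 0.14 at 1 day, in the same order.

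Genes that fell in the pooled comparison and at 1 day, but were not called at 7 days, included P5cr-2 (FBgn0038516, chromosome 3R, 17534815 to 17537136, forward strand), an enzyme gene of proline synthesis, whose exons overlap another gene on the other strand. It stood at 64.4, 72.3 and 66.4 CPM after 7 days alone and 41.5, 41.6 and 45.4 CPM after 1 day alone. The group stood at 79.8, 79.9 and 84.5 CPM. All isolated libraries were below the group, at -0.27 (SE 0.0563, adjusted p = 0.175) at 7 days and -0.93 (SE 0.0568, adjusted p = 0.000956) at 1 day, and the call was lost without replicate 3 of 7 days alone (adjusted p = 0.0524). The tyrosine breakdown gene hgo, the glutathione S-transferase gene GstZ2 and crc, the fly relative of the stress-response factor ATF4, fell in the pooled comparison with log2 fold changes of -0.06, -0.17 and -0.14 at 7 days, and -0.68, -0.49 and -0.38 at 1 day. In hgo 7 days alone overlapped the group, and in the other pair it did not. Each of these 3 pooled calls was lost in 8 of 9 fits with 1 library left out. The exons of crc overlap CG46314 on the same strand.

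The phototransduction genes trpl, a channel of the response to light, and pinta, a retinoid-binding protein needed to make visual pigment, fell too. trpl stood at 2175, 2286 and 2129 CPM after 7 days alone and 1491, 1615 and 1552 CPM after 1 day alone. In the group it reached 2508, 2441 and 2551 CPM. pinta stood at 72.0, 78.6 and 72.0 CPM after 7 days alone and 54.2, 52.9 and 61.4 CPM after 1 day alone. Levels in the group were 89.8, 87.6 and 82.9 CPM. The group was highest in both and 1 day alone lowest, with pooled log2 fold changes of -0.44 (SE 0.0619, adjusted p = 0.0259) for trpl and -0.43 (SE 0.0563, adjusted p = 0.0194) for pinta. Of 26 phototransduction genes these 2 fell and 0 rose by edgeR (0 higher at an unadjusted p under 0.05, by DESeq2 and by limma-voom), with a median of -0.19 pooled, -0.13 at 7 days and -0.24 at 1 day. The summed photoreceptor markers were lower in isolated libraries as well, and their part in this result was not tested. With 1 library left out, trpl was lost in 8 and pinta in 7 of 9 pooled fits.

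Further fallers with no overlap between isolated and group libraries were asRNA:CR46195, CG9759, the cuticle protein gene Cpr11B and CG34265. Their pooled log2 fold changes were -0.93, -1.08, -0.93 and -0.72, and each had a larger estimate at 1 day than at 7 days. asRNA:CR46195 overlaps Trf4-1 on the other strand. Leaving out 1 library at a time lost the pooled call in 4 of 9 fits for asRNA:CR46195 and in 8 of 9 for CG9759, Cpr11B and CG34265.

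Some risers had a larger shift at 1 day. retinin (FBgn0040074, chromosome 3L, 16331933 to 16332789, forward strand), which encodes a protein of the corneal lens, stood at 205, 193 and 186 CPM after 7 days alone and 435, 436 and 452 CPM after 1 day alone. Grouped flies had 170.2, 141 and 176 CPM. The libraries of 1 day alone were far above both other conditions, while those of 7 days alone were a little above the group, at 0.26 (SE 0.0825, adjusted p = 0.487) at 7 days and 1.44 (SE 0.0840, adjusted p = 0.000776) at 1 day. Srg1, a gene regulated by the immune factor STING, stood at 7.08, 9.61 and 6.68 CPM after 7 days alone and 18.0, 13.5 and 20.2 CPM after 1 day alone. Group libraries held 4.75, 4.54 and 4.18 CPM. It had the same order of conditions, at 0.80 (SE 0.188, adjusted p = 0.253) at 7 days and 1.94 (SE 0.193, adjusted p = 0.00377) at 1 day, and overlaps CG7016 on the other strand. The pooled call of retinin was lost without replicate 2 of 7 days alone (adjusted p = 0.0589) or replicate 3 of 7 days alone (adjusted p = 0.0524), and that of Srg1 without replicate 2 of 7 days alone (adjusted p = 0.0589), replicate 3 of 7 days alone (adjusted p = 0.0697), replicate 1 of the group (adjusted p = 0.106), replicate 2 of the group (adjusted p = 0.121) or replicate 3 of the group (adjusted p = 0.109).

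The aldo-keto reductase gene CG9436 (FBgn0033101, chromosome 2R, 6757601 to 6758903, reverse strand) stood at 93.7, 102 and 97.9 CPM after 7 days alone and 102, 111 and 123 CPM after 1 day alone. Group values were 66.1, 66.2 and 72.0 CPM. It was above the group in all 6 isolated libraries at similar levels, at 0.52 (SE 0.0739, adjusted p = 0.0527) at 7 days and 0.72 (SE 0.0741, adjusted p = 0.00406) at 1 day, and missed the call at 7 days only narrowly. Its pooled call was lost in 4 of 9 fits with 1 library left out. Other risers whose isolated and group libraries did not overlap were Phyhd1, CG16743, FBgn0019643, CG11425, Loxl2 and CG11741. Their pooled log2 fold changes were 0.57, 0.52, 0.49, 1.28, 0.69 and 0.90, and all 6 were called at 1 day and not at 7 days. These pooled calls were lost in 5, 6, 6, 7, 8 and 8 of the 9 fits with 1 library left out, in the same order. Loxl2 encodes a lysyl oxidase, an enzyme that cross-links matrix proteins, and FBgn0019643 overlaps CG42568 and DnaJ-60 on the other strand.

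Most of the 147 genes (118) were called at 1 day and not at 7 days, and in some of them 7 days alone was at the level of the group. The dopamine synthesis gene ple, which encodes tyrosine hydroxylase, stood at 67.7, 72.4 and 68.2 CPM after 7 days alone and 128, 126 and 108 CPM after 1 day alone. In group heads it was at 68.2, 67.5 and 71.6 CPM. The libraries of 7 days alone overlapped the group and those of 1 day alone did not, at 0.01 (SE 0.0665, adjusted p = 0.983) at 7 days and 0.80 (SE 0.0669, adjusted p = 0.00236) at 1 day. The muscle LIM protein gene Mlp84B and the paramyosin gene Prm had the same pattern, with 0.06 and 0.06 at 7 days and 0.59 and 0.43 at 1 day. With 1 library left out, the pooled call was lost in 6 of 9 fits for ple and in 8 of 9 for Mlp84B and Prm, and that of Prm was also lost with a term for body tissue (adjusted p = 0.0683). Of 23 muscle genes, these 2 rose and 0 fell in the pooled comparison by edgeR (0 lower at an unadjusted p under 0.05, by DESeq2 and by limma-voom), 13 rose at 1 day and 0 at 7 days, and the list's median was 0.19 pooled, -0.015 at 7 days and 0.41 at 1 day. Summed muscle markers were 2204 to 2417 CPM after 7 days alone, 2783 to 2913 CPM after 1 day alone and 2259 to 2304 CPM in the group, and their part in these calls was not tested.

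Genes that moved further after 7 days were few. The 6 genes of the 147 called at 7 days and not at 1 day were atk, Dsk, Irp-1B, CG15093, Lst and CG15199, of which atk, Irp-1B and CG15093 were chosen for naming after their values were seen. Lst, the hormone limostatin, which lowers insulin release, stood at 134, 128 and 119.8 CPM after 7 days alone and 82.1, 82.3 and 92.3 CPM after 1 day alone. The group stood at 75.8, 77.7 and 73.9 CPM. Its levels after 7 days exceeded all others, and the shift was 0.75 (SE 0.0595, adjusted p = 0.00699) at 7 days and 0.17 (SE 0.0592, adjusted p = 0.168) at 1 day. Dsk, drosulfakinin, a satiety peptide related to cholecystokinin, stood at 39.9, 42.4 and 38.7 CPM after 7 days alone and 55.8, 58.4 and 79.4 CPM after 1 day alone. In the group it reached 80.00, 85.9 and 79.1 CPM. After 7 days it was below every other library, while 1 library of 1 day alone overlapped the group, at -1.02 (SE 0.129, adjusted p = 0.0349) at 7 days and -0.34 (SE 0.128, adjusted p = 0.211) at 1 day. The extracellular matrix gene atk stood at 86.8, 98.8 and 89.5 CPM after 7 days alone and 36.1, 39.0 and 34.8 CPM after 1 day alone. Levels in the group were 31.5, 29.0 and 36.0 CPM. Its exons share bases with CG42764 on the same strand and Uhg8 on the opposite strand. It was high after 7 days, and the libraries of 1 day alone overlapped the group. For Lst the pooled call was lost without replicate 2 of 7 days alone (adjusted p = 0.0881), replicate 3 of 7 days alone (adjusted p = 0.0524), replicate 1 of the group (adjusted p = 0.144), replicate 2 of the group (adjusted p = 0.125) or replicate 3 of the group (adjusted p = 0.138), for Dsk in 8 of 9 such fits, and for CG15199 in 6. CG15199, at 0.74 (SE 0.0840, adjusted p = 0.019) at 7 days and 0.39 (SE 0.0838, adjusted p = 0.0539) at 1 day, and Irp-1B and CG15093, at 0.68 and 0.59 at 7 days against 0.24 and 0.20 at 1 day, were above the group in all 6 isolated libraries. CG15199 overlaps asRNA:CR44054 on the other strand. Of 36 neuropeptide and peptide hormone genes, Lst rose and Dsk fell in the pooled comparison, and the list's median was 0.03 pooled, -0.035 at 7 days and 0.007 at 1 day.

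**Figure D4:**
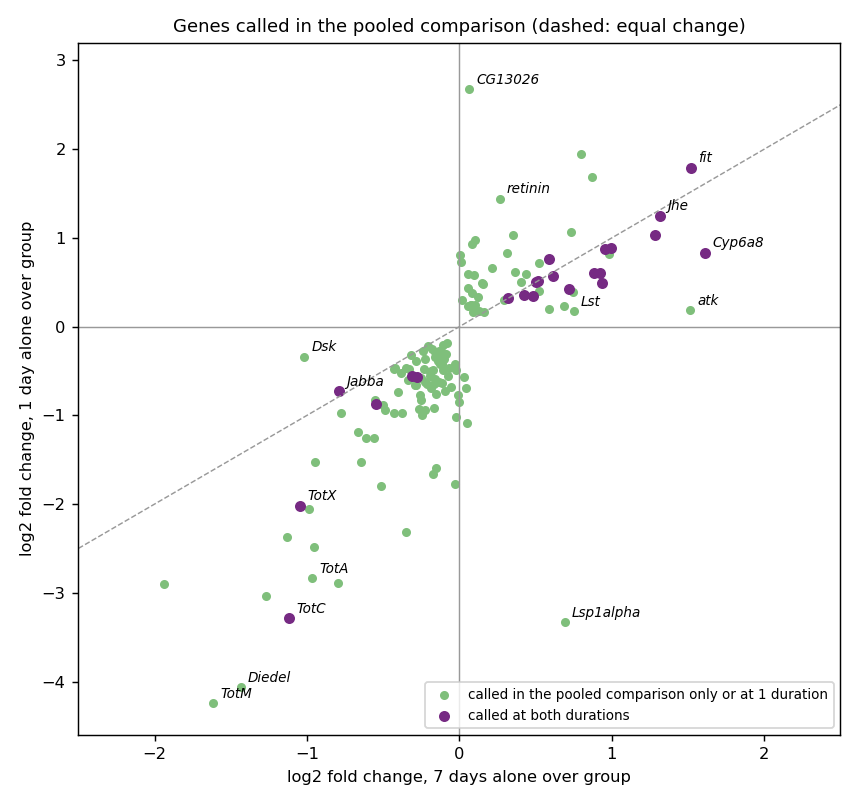
Log2 fold change at 7 days alone over group (horizontal) against 1 day alone over group (vertical) for the 151 genes called in the pooled comparison, with the dashed line at equal change and the 23 genes called at both durations in purple. Both axes share the same 3 group libraries, and most fallers lie below the dashed line, further from the group after 1 day; the labelled genes were picked for their place in the plot.

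Opposite signs at the durations were found in 3917 of all 12963 genes, 3779 of them called at neither. A pooled call selects against such genes, since opposite shifts cancel in the mean. tobi, an alpha-glucosidase gene that responds to insulin-like peptides, stood at 229, 248 and 235 CPM after 7 days alone and 103, 96.7 and 90.2 CPM after 1 day alone. Grouped flies had 130.0, 144 and 129 CPM. It was above the group after 7 days and below it after 1 day, called each way at 0.82 (SE 0.0631, adjusted p = 0.00669) at 7 days and -0.48 (SE 0.0630, adjusted p = 0.00873) at 1 day, and was the single gene with calls of opposite direction. Its pooled log2 fold change was 0.17 (SE 0.0547, adjusted p = 0.27). It overlaps rha on the other strand. In the 4 genes called in the pooled comparison with opposite signs (Lsp1alpha, CG31075, CG7997 and Nepl18, named after their values were seen) the value at 7 days was above 0 and not called. Lsp1alpha, a storage protein gene, stood at 11.8, 21.5 and 18.6 CPM after 7 days alone and 1.28, 0.986 and 0.928 CPM after 1 day alone. Group libraries held 12.4, 9.77 and 9.99 CPM. It was far lower after 1 day than in any other library, with log2 fold changes of 0.69 at 7 days and -3.33 at 1 day. CG13026, which overlaps CG13031 on the other strand, was higher after 1 day, with 0.07 at 7 days and 2.68 at 1 day.

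Among the 17 risers called at both durations the median log2 fold change was 0.71 pooled, 0.89 at 7 days and 0.60 at 1 day, and 13 of the 17 had the larger estimate at 7 days. Among the 6 fallers the medians were -0.73, -0.67 and -0.80 in the same order, and 5 of the 6 had the larger estimate at 1 day. The call at 7 days was the harder to pass, since 118 of the 147 same-sign genes missed it, against 6 at 1 day. Choosing genes called at both durations therefore favours large shifts at 7 days. The medians of the risers and the 13 of 17 follow in part from that choice, and no difference between durations is read from them. The test between durations called 7 of the 23, with Cyp6a8 and Prx6c further from the group at 7 days and TotC, TotX, CG9664, mthl10 and CG10175 further at 1 day. The medians of all genes were 0.02, 0.01 and 0.03. Fold changes went with gene length over all genes, with a Spearman rho of -0.39 pooled, -0.27 at 7 days and -0.41 at 1 day, which is a description over genes of the same libraries. The risers called at both durations had a median summed exon length of 1514 bases and the fallers of 2776 bases, against 1782 bases for all genes tested. The part of length in these calls was not tested beyond subtracting a fitted trend, after which 21 of the 23 remained called at both durations. That step left a rho of -0.17 pooled, -0.14 at 7 days and -0.18 at 1 day. It thus removed the trend only in part, and nothing about length is read from the 21.

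**Figure D5:**
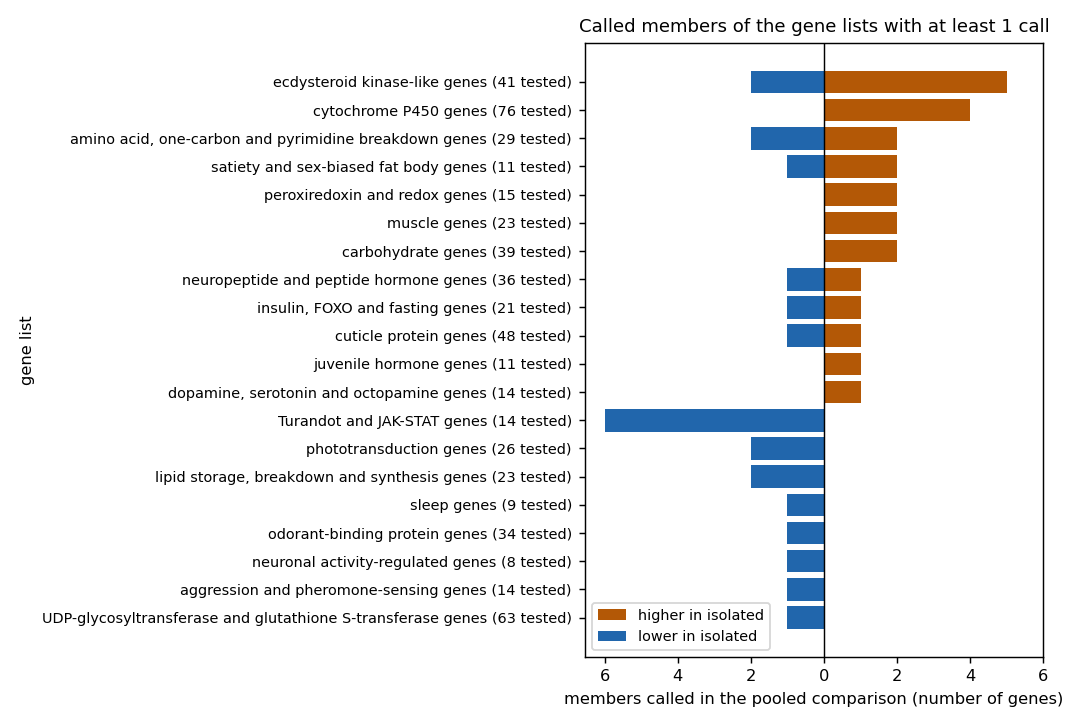
Number of members called in the pooled comparison for each of the 20 gene lists with at least 1 call, with higher members to the right and lower members to the left of 0 and the number tested beside each name. Ecdysteroid kinase-like genes reach 5 higher and 2 lower, cytochrome P450 genes 4 higher, and Turandot and JAK-STAT genes 6 lower.

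Several lists had no member called in the pooled comparison by edgeR. Since 1.16% of all genes tested were called, 0 calls in lists of this size is near that share, and nothing is read from it. Of all 12963 genes, 1451 had an unadjusted p under 0.05, DESeq2 called 704 and limma-voom called 138. Of 9 circadian clock genes 0 were called (0 higher and 2 lower at an unadjusted p under 0.05, 1 lower by DESeq2, 0 by limma-voom). Of 86 ribosomal protein genes 0 were called by any of the 3 tools or at an unadjusted p under 0.05. Of 85 oxidative phosphorylation genes 0 were called, with 21 higher and 0 lower at an unadjusted p under 0.05, 9 higher by DESeq2 and 0 by limma-voom, and edgeR called 6 higher at 1 day. Of 23 heat shock protein genes 0 were called, with 6 higher and 1 lower at an unadjusted p under 0.05, 3 higher by DESeq2 and 0 by limma-voom.

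Genes often studied with social experience were looked up whatever their values. Cyp6a20, a P450 known to vary with social experience and aggression, stood at 169, 176 and 161 CPM after 7 days alone and 155, 137 and 165 CPM after 1 day alone. Group values were 186, 178 and 177 CPM. All isolated libraries were below the group, by little, and the pooled log2 fold change of -0.17 (SE 0.0585, adjusted p = 0.31) was not called. Obp69a, an odorant-binding protein gene tied to pheromone sensing, had a pooled value of -0.35 (SE 0.131, adjusted p = 0.354) and overlaps CG32104 on the other strand. Neither the feeding gene to, at 0.27 (SE 0.0918, adjusted p = 0.31), nor the activity-regulated receptor gene Hr38, at 0.57 (SE 0.398, adjusted p = 0.718), was called. The growth inhibitor gene Thor stood at 177 ± 15.9 CPM after 7 days alone, 251 ± 29.7 CPM after 1 day alone and 210.0 ± 8.22 CPM in the group (mean ± SD, n = 3), and its pooled value of 0.01 (SE 0.0830, adjusted p = 0.979) hid values on either side of the group. Of the clock genes, per had 0.05 (SE 0.0407, adjusted p = 0.766) and tim -0.18 (SE 0.0479, adjusted p = 0.187) pooled, and tim was called at 1 day at -0.35 (SE 0.0558, adjusted p = 0.0173). Hr38 overlaps CG2617 and per overlaps dyw on the other strand.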

How the data were processed

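RNA of whole heads was sequenced from TruSeq stranded mRNA libraries, per the labels' protocols. Per the submitters' processing notes the authors used bcl2fastq 2.20, STAR 2.4.2a and featureCounts. Version of the counter, genome build, annotation and strand settings: not given in the sources used here. What the authors deposited were raw counts per gene for each library, with no normalisation, beside another column, the summed exon length. Of 17490 genes, 17288 had a symbol by identifier and 17144 the same span in the BDGP6 annotation of Ensembl, from which coordinates were taken. In 4520 genes an exon shared bases with one on the opposite strand, whose reads could be mixed in if counting ignored strand.

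Counts were fitted with edgeR 4.0.16 (R 4.3.3, limma 3.58.1): filterByExpr left 12963 genes, then TMM scaling and the quasi-likelihood test with the 3 conditions as the only term. The contrasts were the mean of both isolation times minus group, each time minus group, and 7 days minus 1 day, two-sided, with Benjamini-Hochberg adjustment and a call at an adjusted p under 0.05. SE was taken as |log2 fold change| / √F. The members, the gene lists and the rule for named genes were chosen with earlier results of these data known. Named were all genes called at both durations, the 10 largest rises and 10 largest falls among the other same-sign genes with at least 5 CPM and no overlap between isolated and group libraries, up to 4 called genes per list, 10 genes looked up whatever their values, and genes called in opposite directions.

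A count of 0 allows up to 3 counts of a library total. Libraries of a condition differed beyond counting noise, most of all replicate 3 of 1 day alone. Over genes that do not differ with body tissue, its chi-square per gene was 121.6 against replicate 1 and 125.6 against replicate 2. Between replicates 1 and 2 of 1 day alone it was 6.665, and in the other conditions 9.758 to 59.37. Mitochondrial genes held 7.30%, 7.37% and 3.42% of counts in replicates 1, 2 and 3 of 1 day alone, and 2.48% to 5.24% in the other conditions. Scripts were tested on simulated counts. Alternatives were RLE scaling, no filter, DESeq2 1.42.0, limma-voom, a replicate block, a body tissue term (markers over 50 CPM), leaving out genes that differ with body tissue, isolated libraries as 1 condition, a minimum fold of 1.5, adjusting the larger p, and leaving out each library. Chosen after seeing the data were fits of only the libraries without or with body tissue, and subtraction of a length trend. Python 3.11.15 with pandas 2.3.3 and matplotlib 3.10.9 served for counts of members and plots.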

Additional observations from a re-analysis of the deposited data

Results flagged for a closer look

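Among the 65 named genes, 3 had 1 isolated library far from the other 5, about as many as chance gives at 1 in 20. Cyp6w1 was highest in replicate 2 of 7 days alone (354.6 CPM), fit in replicate 1 of 1 day alone (90.67 CPM) and Hr38 in replicate 2 of 1 day alone (32.45 CPM). Cyp6w1 and fit were called at both durations, and Hr38 was not called. These sets joined both isolation times, so a difference between times adds to the range.

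Listed next are named genes called in the pooled comparison with the same sign at both durations, and tobi, called in opposite directions. In 31 of them the shift from the group differed between the durations by the direct test of 7 days minus 1 day (edgeR quasi-likelihood test, adjusted p under 0.05). The log2 difference of 7 days minus 1 day stands in brackets. Of these, 17 fell further at 1 day: TotC (2.17), TotX (0.97), TotA (1.87), TotM (2.62), Diedel (2.63), CheA87a (1.53), Obp99b (0.70), P5cr-2 (0.66), asRNA:CR46195 (0.65), hgo (0.62), trpl (0.50), pinta (0.40), CG9664 (0.32), GstZ2 (0.32), mthl10 (0.29), CG10175 (0.24) and crc (0.24). A further 9 rose further at 1 day: retinin (-1.18), Srg1 (-1.15), ple (-0.80), Loxl2 (-0.69), Mlp84B (-0.54), Phyhd1 (-0.52), Prm (-0.38), Sod3 (-0.35) and Pdhb (-0.21). Cyp6a8 (0.78), Lst (0.57) and Prx6c (0.45) rose further at 7 days, and Dsk (-0.68) fell further at 7 days. tobi (1.30) was higher than the group at 7 days and lower at 1 day. The same test also called tim (0.35), Thor (-0.51) and per (-0.24), which were looked up whatever their values. They were not called in the pooled comparison and are not among the 31.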

How the results depend on the processing

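The counts of called genes were 151 pooled, 23 at both durations, 39 at 7 days and 513 at 1 day. They stayed within 1.5 times with RLE scaling (125, 23, 39 and 463), with no filter on low counts (113, 20, 32 and 352) and with limma-voom (138, 30, 52 and 549). DESeq2 called 704, 145, 330 and 1561, the 145 being 66 higher and 79 lower. Leaving out the genes that differ with body tissue gave 316, 65, 148 and 962, and the 65 were 33 higher and 32 lower. The body tissue term gave 205, 50, 142 and 728, and all 23 genes were called again at both durations. Only the libraries without body tissue gave 4022, 382, 766 and 5468, and only those with it 5, 3, 4 and 127, each with 1 library in at least 1 condition, which is assumed to vary like the others. Subtracting the length trend gave 207, 39, 82 and 800 and left a rho of fold change with length of -0.17 pooled. The isolated libraries as a single condition gave 12 pooled (11 higher, 1 lower), a fold of at least 1.5 gave 53 pooled, and the larger p adjusted gave 12 at both durations.

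Outside the replicate block below, the fits did not pair samples by their replicate numbers. Deviations from the condition means correlated at r from -0.355 to 0.0197 between libraries of the same number. Between libraries of different number r was -0.254 to 0.32. These values cannot decide whether the samples were paired. A replicate block gave 30 pooled, 0 at both durations, 0 at 7 days (637 at an unadjusted p under 0.05) and 162 at 1 day.

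With 1 library left out, the pooled count ranged from 16 to 359, that of both durations from 1 to 78 (the 78 being 33 higher and 45 lower), that of 7 days from 3 to 193 and that of 1 day from 137 to 881. Of 57 named genes called in the pooled comparison, 15 to 55 were still called in these fits, 12 of them in all 9, and no named gene that was called changed direction in any fit run, which their choice on these libraries in part fixes. Named calls remained in 54 (RLE), 47 (no filter), 57 (DESeq2), 53 (limma-voom), 24 (replicate block), 56 (body tissue term), 12 (single isolated condition) and 55 (length trend). The causes of these differences were not tested. TotB, at 0.225 CPM in its lowest library, was above the 3 counts that a count of 0 allows.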
